A study of Rattus norvegicus with 12 samples.

Results

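The data describe what differed in rat cells labelled PC12 when mesenchymal stem cells were added after oxygen-glucose deprivation and reoxygenation. The libraries were chosen by their labels: 4 titled MSCs (MSC here), from deprived cells given the stem cells, and 4 titled OGDR, from deprived cells for which no stem cells are named, 8 of 12 in all. Both groups carry the deprivation and reoxygenation, and the series text gives 48 h after treatment as the time for each. The other 4 libraries had stem cells and repetitive transcranial magnetic stimulation. They shared in the filter on low counts, the scaling and the estimate of spread, and were not compared. Messenger RNA was sequenced in bulk, and the values are counts per gene. The species of the stem cells, the way they met the labelled cells and whether the 4 libraries of a group were separate cultures were not stated in the labels. A changed level is therefore assigned to neither cell type, fewer cells of a type and less RNA per cell cannot be told apart, and the p-values rest on the spread among these libraries alone, which may be technical.

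Mesenchymal stem cells are stromal cells of bone marrow and other tissues that release growth factors, cytokines and vesicles. They are studied as a treatment after loss of blood supply, where cells that lose oxygen and glucose face energy failure, oxidative damage, inflammatory signals and blocked protein synthesis. Setting MSC against OGDR asks which of these programmes, and which others, stood at another level with the stem cells present.

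Each library held 18246250 to 20471838 counts in genes, and 16707 to 16899 genes had at least 1 count. Of 30454 genes in the table, 20776 had a count in some library of the series and 13692 passed the filter on low counts and were tested. Levels are given as CPM, counts scaled to a common library size, which are not divided by gene length, so a level does not rank genes by their number of transcripts. Log2 fold changes are MSC over OGDR with their standard errors. The words rose, fell and changed are kept for genes with an adjusted p under 0.05 in the edgeR quasi-likelihood test. The spread of a gene's level between replicates beyond counting noise (the biological coefficient of variation) was 0.0937 as a share of the level. Several genes that most cells use, such as Impdh2, Tapbp and Mybbp1a, were listed with 0 counts in all 8 libraries, so a 0 in this table does not show that a gene is silent.

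The name PC12 belongs to a line from a rat adrenal chromaffin tumour, and the marker levels went against it in part. Of 34 chromaffin and sympathetic neuron markers, 16 were tested and 4 reached 10 CPM in either group. Th, which sets the pace of catecholamine synthesis, stood at 0.151 CPM in OGDR. Ddc and Hand2 were listed at 0, which, as said, does not show that they are silent. Other members were present: the list summed to 634.8 to 693.7 CPM over the OGDR libraries, with the granule protein Scg2 at 293 CPM. Sox10, the lineage regulator of Schwann cells and other glia, had 387, 397, 327 and 335 CPM in the 4 OGDR libraries, whose labels name no stem cells. The cells are therefore called the labelled cells here.

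Addition of the stem cells went with changes in 2763 of 13692 genes (20.2%). Of these, 1582 (11.6%) rose and 1181 (8.63%) fell. Rises reached further than falls: 227 genes rose and 82 fell by at least 2-fold, and 53 rose and 9 fell by at least 4-fold. Over all tested genes the median log2 fold change was -0.0021, and over changed genes the median absolute value was 0.38. Groups did not overlap in 3376 tested genes, and 2478 of these passed the test. Calls were more frequent where counts were deeper. Under 1 CPM, 3.96% of genes rose and 1.53% fell, and at 500 CPM and over 24.1% rose and 26.1% fell. A missed call at low counts therefore says little about a gene. Counts of rises and falls in the gene lists below are to be read beside the 11.6% and 8.63% over all tested genes. For lists of highly expressed genes these shares are a low yardstick, as 19.3% rose and 14% fell at 100 to 500 CPM.

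**Figure D1:**
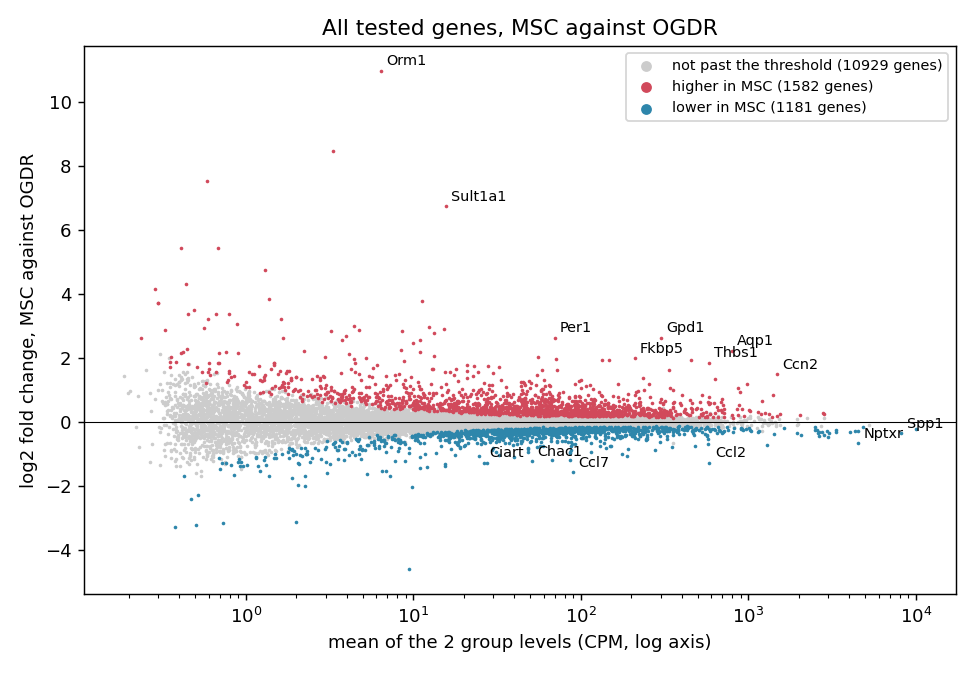
Log2 fold change of MSC against OGDR (y axis) against the mean of both group levels in CPM (x axis, log scale) for the 13692 tested genes, each point a gene. Red points rose (1582), blue points fell (1181), and 53 points lie at or above a 4-fold rise against 9 at or below a 4-fold fall.

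The 12 largest rises were taken among genes of at least 20 CPM in the higher group whose groups did not overlap. The lack of overlap in these genes is thus part of the choice and no result. The 12 held water and glycerol handling, clock and signalling genes. Aqp1, the water channel aquaporin, had 292, 276, 277 and 284 CPM in OGDR and 1307, 1327, 1297 and 1315 CPM in MSC. The MSC values lay within a narrow band more than 4-fold above every OGDR value (log2 fold change 2.22 ± 0.0498, adjusted p = 2.68e-17). Gpd1, which makes glycerol phosphate and moves reducing power out of glycolysis, also rose without overlap, from 91.1, 90.1, 81 and 74.4 CPM to 516, 535, 482 and 543 CPM (2.62 ± 0.0647). Tsc22d3, which encodes the leucine zipper protein GILZ and damps inflammatory signalling, went from 26.6, 29.1, 28.1 and 31.6 CPM to 115, 113, 112 and 112 CPM (1.97 ± 0.0684). Fkbp5, a chaperone partner of steroid receptors, rose from 84.2 to 335 CPM (1.99 ± 0.0607). The phenol-sulfating enzyme Sult1a1 was scarce in OGDR at 0.341, 0.0986, 0.482 and 0.208 CPM and stood at 28.7, 34.2, 30 and 31.1 CPM in MSC (6.74 ± 0.195). Cp, the copper carrier ceruloplasmin, rose from 21.9 to 89.5 CPM, and the semaphorin receptor Plxnb3 from 5.13 to 21.4 CPM. Tent5b, a poly(A) polymerase, Shroom3, which shapes cells through actin, and Tril, which assists Toll-like receptors, changed by 3.77, 2.95 and 2.90. The clock gene Per1 (2.63) and the unnamed locus AABR07007032.1 (2.76) completed the 12.

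Among the 12 largest falls, chosen by the same rule, were 2 chemokines, 2 stress genes and several signalling genes. The monocyte chemokine Ccl7 had 132, 140.2, 125 and 143 CPM in OGDR and 44.8, 45.4, 42.1 and 49.3 CPM in MSC, with no overlap (-1.57 ± 0.0666, adjusted p = 4.19e-13). Disp2, a homologue of the protein that releases hedgehog ligands, fell from 22.3 to 8.46 CPM (-1.40 ± 0.132), and the laminin chain Lama3 from 22.2 to 8.85 CPM (-1.33 ± 0.122). The neuronal leucine-rich repeat protein Lrrn3 had 38.1, 38, 39.6 and 39.8 CPM in OGDR and 19.2, 13.1, 14.8 and 16.7 CPM in MSC. Axin2, a feedback inhibitor and a widely used readout of Wnt signalling, went from 100.2, 89.5, 92.3 and 92.5 CPM to 40.7, 43, 41.1 and 38.4 CPM (-1.20 ± 0.0794). Igfbp5, which binds insulin-like growth factors, had 247, 238, 272 and 272 CPM in OGDR and 123, 124, 125 and 115 CPM in MSC, so that each MSC library held less than every OGDR library (-1.08 ± 0.0669). The interferon-inducible GTPase Gvin1 and the membrane protein Evi2a changed by -1.10 and -1.08. Ccl2, Ciart, Chac1 and Trib3, the remaining 4, are described with their groups below.

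**Figure D2:**
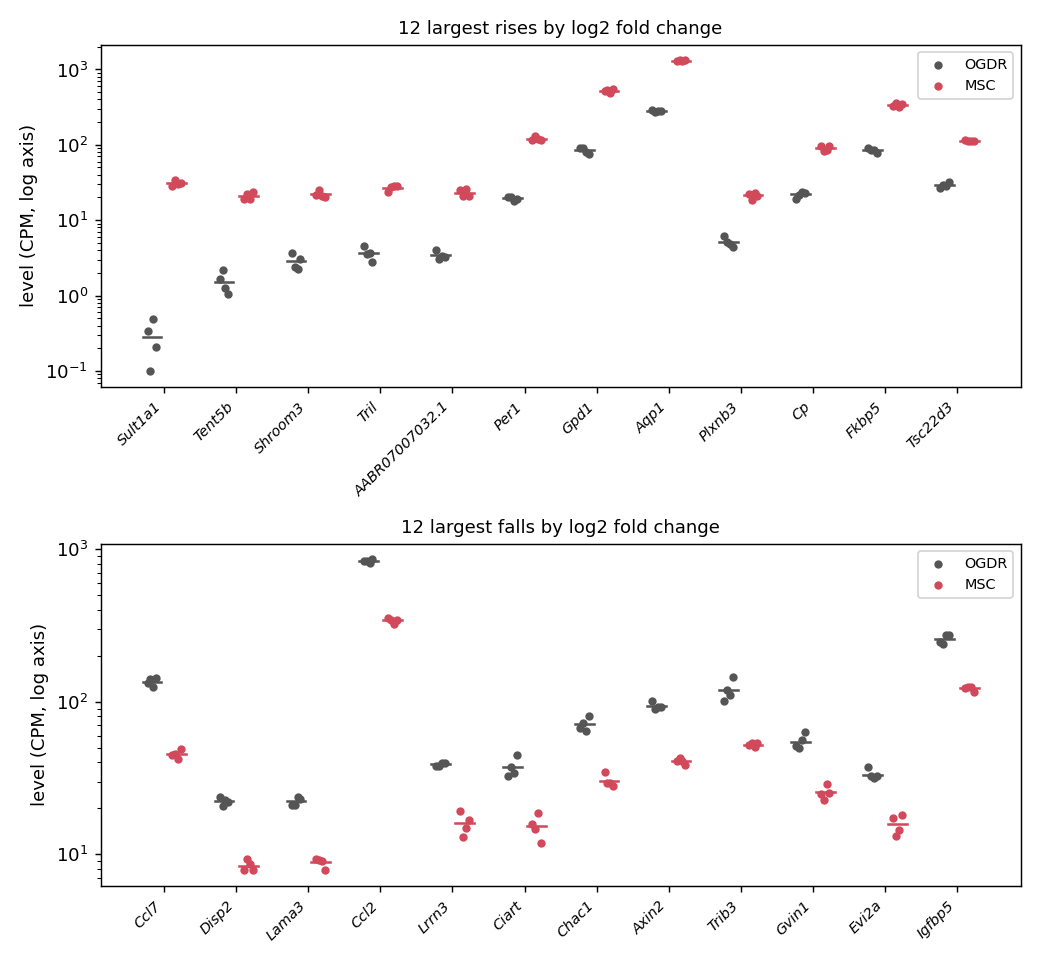
Level in CPM (y axis, log scale) of the 12 genes with the largest rises (upper panel) and the 12 with the largest falls (lower panel). Each dot is a library, grey for OGDR and red for MSC, with 4 per group and a line at the group mean. Genes whose groups overlap were left out of the choice.

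In CPM, a measure that longer transcripts weigh on more, the genes that rose gained 50344 CPM and the sum over those that fell dropped by 46467.1 CPM. The 10 largest gains came to 7405.84 CPM, and the 10 genes with the largest losses dropped by 11836.7 CPM together. The largest gain was in Ccn2, a matricellular growth regulator, which had 708, 817, 719 and 879 CPM in OGDR and 2091, 2169, 2199 and 2261 CPM in MSC. Gains also came from Loxl3, which cross-links collagen and elastin (1006 to 1809 CPM), the surface proteoglycan Gpc1 (612 to 1166 CPM), Rassf4, a Ras-association adaptor (361 to 904 CPM), the caveolar coat protein Cav1 (931 to 1466 CPM) and the protease inhibitor Cst3 (188 to 719.9 CPM). The largest loss was in Nptxr, a receptor of neuronal pentraxins at synapses, with 5779, 5730.4, 5464 and 5413 CPM in OGDR and 3574, 3674, 3346 and 3372 CPM in MSC (-0.68 ± 0.0461). Spp1, which encodes osteopontin, had 9133, 9484, 9225 and 9080.5 CPM in OGDR and 7178, 7197, 7028 and 7221 CPM in MSC, a small fold change (-0.37 ± 0.0373) with a narrow spread. Serpine2, an inhibitor of thrombin and plasminogen activators, the elongation factor Eef1a1 and the cytoplasmic actin Actg1 changed by -0.47, -0.31 and -0.33. Mt-co1, Mt-co2, Mt-co3 and Mt-atp6, subunits of cytochrome oxidase and ATP synthase made in mitochondria, and the chemokine Cxcl10 were the other losses.

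**Figure D3:**
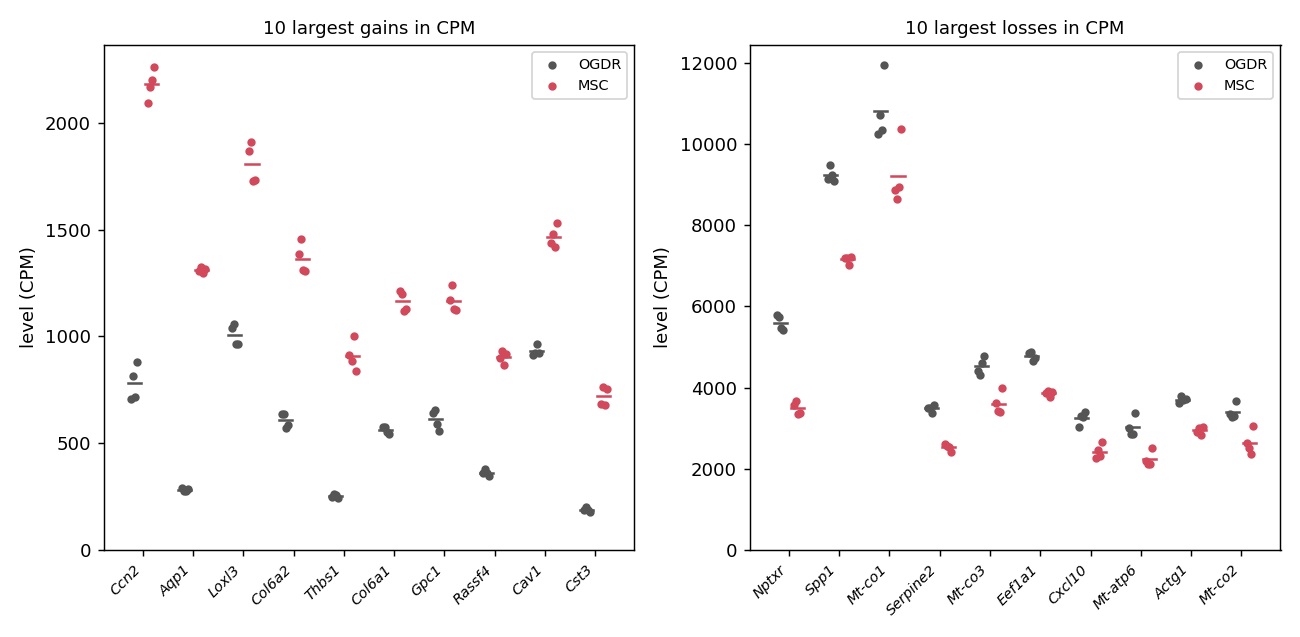
Level in CPM (y axis, from 0) of the 10 genes with the largest gains (left) and the 10 with the largest losses (right), with 1 dot per library (grey OGDR, red MSC) and a line at each group mean. Ccn2 goes from 781 to 2180.1 CPM and Nptxr from 5597 to 3492 CPM, and Mt-co1 alone among the 20 has groups that overlap.

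Glucocorticoids act through the receptor Nr3c1, which binds DNA directly and induces a set of metabolic and anti-inflammatory genes shared by many tissues. Of 40 listed targets, 32 were tested, 21 rose and 0 fell, with a median log2 fold change of 1.08. This list was drawn up with earlier results of these libraries known, so its direction is no independent evidence. Its summed level ran from 1526.8 to 1558.8 CPM over the OGDR libraries and from 3044.5 to 3255.1 CPM over the MSC libraries. Sgk1, a kinase that regulates ion transport, had 55.1, 64.8, 65.3 and 61.6 CPM in OGDR and 235, 227, 237 and 233 CPM in MSC (1.92 ± 0.0653, adjusted p = 1.39e-14). Klf15 and Klf9, zinc finger factors of the Kruppel-like family, rose from 7.83 to 23.1 CPM and from 16.6 to 32.9 CPM. Fam107a, an actin-binding protein, rose from 1.53 to 6.68 CPM (2.12 ± 0.254). The receptor Nr3c1 itself had 103, 108, 109.8 and 116 CPM in OGDR and 99.1, 99.1, 109.6 and 99.3 CPM in MSC, with groups that overlapped (-0.10 ± 0.0697, adjusted p = 0.336). Kruppel-like factors as a family had 6 rises and 1 fall among 14 tested of 17, with Klf2 at 1.31, Klf7 at 0.76, Klf6 at 0.32 and Klf4, the fall, at -0.34. Nuclear receptors had 6 up and 4 down of 31, led by the orphan receptors Nr2f2 (0.81), Nr4a1 (0.57) and Nr4a3 (-1.17).

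Promoter stretches are shown for 2 of the risen genes that hold the glucocorticoid receptor's element, both from near or under 2 CPM in OGDR. RefSeq promoters of GRCr8 (250 bases before to 50 after the start) matched 9773 of 12723 symbols of tested genes. Of 16 motifs searched on both strands after the values had been seen, 3 are described here, and none is a measure of binding. The glucocorticoid receptor's element, searched as a gapped palindrome with its inner bases fixed, was in 0.422% of 27457 promoters, in 0.256% of those of tested genes, in 0.408% of those that rose (5 promoters) and in 0.341% of those that fell (3 promoters). Among 27 glucocorticoid targets with a promoter in the table, 1 held it, Fam107a, and outside that list the acute-phase gene Orm1 held it as well. Of the 26 targets without it, 18 rose and 0 fell. The stretches below, with 36 bases on either side of the motif in capitals, run 5′ to 3′ along the gene. They lie at chr5:81788343-81788427 (plus strand) for Orm1 and at chr15:19046335-19046419 (plus strand) for Fam107a.
Orm1: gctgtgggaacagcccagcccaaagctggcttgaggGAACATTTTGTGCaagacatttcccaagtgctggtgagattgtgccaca
Fam107a: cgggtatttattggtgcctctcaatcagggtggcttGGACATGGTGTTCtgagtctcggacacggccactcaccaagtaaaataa

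Orm1, a plasma protein of the acute phase, was listed with 0 counts in the 4 OGDR libraries together and 986 in the 4 MSC libraries. The MSC libraries held 14.8, 14.9, 8.66 and 12.8 CPM, against an upper limit of 0.0371 CPM that 3 counts over the OGDR group would give, at least a 345.1-fold rise. That limit covers counting error only. Acute phase and complement genes had 11 rises and 1 fall among 17 tested of 34, with a median of 0.41. C1qtnf1, a secreted relative of complement C1q, had 29.9, 29, 25.3 and 31.9 CPM in OGDR and 78.5, 91.5, 88.4 and 96.1 CPM in MSC (1.61 ± 0.0858). C3, the central complement protein, rose from 3.14 to 8.21 CPM, and the protease C1s of the classical pathway from 74.4 to 108 CPM. The fall was Socs3, an inhibitor of cytokine signalling (-0.30 ± 0.0781).

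Circadian clocks are feedback loops in which BMAL1 with CLOCK or NPAS2 activates genes through E-box sequences, and PER and CRY proteins and the REV-ERB receptors hold the loop in check. Their genes moved in opposite directions: of 22 listed and tested, 4 rose and 9 fell. Among activators, Bmal1 had 48.1, 45, 51 and 59.6 CPM in OGDR and 77.4, 78.1, 80.1 and 76.9 CPM in MSC (0.62 ± 0.0806), and Npas2 rose from 35.4 to 43 CPM. Among the inhibitors, Per1 had 20.6, 20, 17.8 and 19.4 CPM in OGDR and 117, 132, 118 and 114 CPM in MSC, with the groups far apart (2.63 ± 0.0696). Its relative Per2 went the other way, with 21.6, 26.8, 23 and 24.1 CPM in OGDR and 13.1, 9.39, 11.4 and 12.5 CPM in MSC (-1.04 ± 0.114, adjusted p = 8.27e-07). Per3 fell from 32.9 to 20.9 CPM and Cry1 from 29.1 to 21.2 CPM. The REV-ERB receptors Nr1d1 and Nr1d2 fell from 88.9 to 71.6 CPM and from 49.1 to 29.4 CPM. Output factors fell too: Dbp, which binds D-box sequences, had 39.8, 48, 42.5 and 45.1 CPM in OGDR and 20.4, 21.8, 20.8 and 22.9 CPM in MSC (-1.03 ± 0.083), and its relative Tef fell from 99.5 to 79.5 CPM. Ciart, a repressor of CLOCK and BMAL1, had 32.7, 37.5, 33.9 and 44.8 CPM in OGDR and 15.9, 14.7, 18.6 and 11.9 CPM in MSC, with the lowest OGDR value well above the highest MSC value. Bhlhe40, another E-box repressor, changed by -0.47, and Usp2, a deubiquitinase of clock proteins, rose by 0.36, a call lost without OGDR 2 (adjusted p = 0.0619) or MSC 1 (adjusted p = 0.0551) in the same edgeR test. All 13 changed clock genes had groups that did not overlap, as did 2478 of the 2763 changed genes of the whole test.

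**Figure D4:**
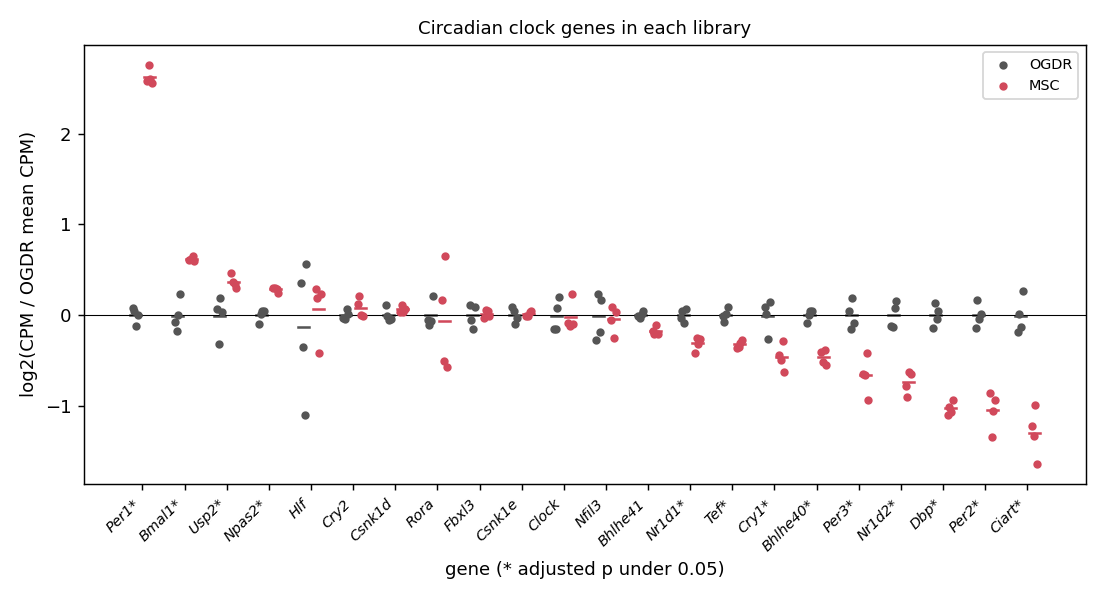
Log2 of each library's CPM over the OGDR mean (y axis) for the 22 clock genes, ordered by log2 fold change, with 1 dot per library (grey OGDR, red MSC), a line at the mean of the dots and a star where the adjusted p was under 0.05. Per1 stands alone at the top with MSC libraries above 2.5, and the MSC libraries of Dbp, Per2 and Ciart lie near or below -0.86.

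The E-box CACGTG was in 6.65% of all promoters and in 9.43% of those of tested genes. It was in 7.18% of promoters of genes that rose and in 13.5% of those of genes that fell. Of 18 clock genes with a promoter in the table, 4 held it, of which 3 fell and Bhlhe41, a relative of Bhlhe40, did not pass the edgeR test (-0.18 ± 0.0683, adjusted p = 0.0719) but did with upper quartile scaling (adjusted p = 0.0405), in the fit of 8 libraries (adjusted p = 0.0418) and with DESeq2 (adjusted p = 0.044). Of the 14 without it, 5 fell and 4 rose. The E-box was also in 17 of 41 ribosome assembly genes and 13 of 60 translation factors with a promoter. The 13.5% among fallen genes is therefore not a share of clock genes alone. The matches in Ciart, Tef and Bhlhe40, which fell, are shown because the E-box is the element of this loop, with the E-box in capitals and at most 36 bases on either side. They lie at chr2:186112226-186112375 (minus strand), at chr7:115206593-115206670 (plus strand) and at chr4:143174200-143174271 (plus strand).
Ciart: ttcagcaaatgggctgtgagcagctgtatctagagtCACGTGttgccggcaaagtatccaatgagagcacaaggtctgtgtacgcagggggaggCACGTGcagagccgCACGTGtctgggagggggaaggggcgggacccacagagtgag
Tef: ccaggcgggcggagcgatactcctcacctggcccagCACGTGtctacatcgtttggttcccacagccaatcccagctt
Bhlhe40: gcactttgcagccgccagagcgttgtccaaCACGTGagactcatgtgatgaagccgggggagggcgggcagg

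The integrated stress response slows protein synthesis when amino acids run short or proteins misfold, and its factor ATF4, with CHOP and C/EBP partners, induces genes for amino acid supply through an element of the form TGATGNAA. Of 32 tested genes of this and the unfolded protein response, 1 rose and 11 fell (34 listed, median -0.11). The ATF4 gene itself, Atf4, had 549, 597, 601 and 681 CPM in OGDR and 356, 364, 344 and 373 CPM in MSC, with no overlap (-0.76 ± 0.0588). Asns, which makes asparagine, had 162, 161, 169 and 182 CPM in OGDR and 106, 103, 107 and 105 CPM in MSC (-0.68 ± 0.055). Chac1, which degrades glutathione, had 67.4, 72.1, 64.2 and 81.1 CPM in OGDR and 34.5, 29.4, 29.5 and 28.1 CPM in MSC, and Trib3, a pseudokinase that feeds back on ATF4, 101, 119.5, 111 and 145 CPM and 51.8, 53.2, 50.6 and 53.6 CPM. Sesn2, a leucine sensor upstream of mTORC1, fell from 114 to 70.3 CPM, and the secreted glycoprotein Stc2 from 38.4 to 20.8 CPM. The rise was Creld2, an endoplasmic reticulum protein (0.32), and its call was lost with upper quartile scaling (edgeR adjusted p = 0.0556) and without OGDR 3 or 4 or MSC 1 or 2 (adjusted p = 0.0967 to 0.158).

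Most cytosolic enzymes that charge transfer RNA with amino acids fell. All 22 listed cytosolic synthetases were tested, 17 fell and 1 rose, with a median of -0.28. Nars1, the asparagine enzyme, had 398, 397, 396 and 425 CPM in OGDR and 291, 292, 311 and 325 CPM in MSC, and its groups did not overlap (-0.41 ± 0.0503, adjusted p = 3.89e-06). Eprs1, which charges glutamate and proline, had the most negative change of the list, from 653 to 477 CPM (-0.45 ± 0.0654). The methionine, cysteine, isoleucine and threonine enzymes changed by -0.41 (Mars1), -0.44 (Cars1), -0.35 (Iars1) and -0.29 (Tars1). Qars1, the glutamine enzyme, was the riser, with 258, 285, 279 and 282 CPM in OGDR and 325, 353, 337 and 335 CPM in MSC (0.29 ± 0.0494). Of the mitochondrial synthetases, 3 of 14 fell and 0 rose, with Fars2, the phenylalanine enzyme, at -0.32.

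The element TGATGNAA was found in 3.82% of all promoters and in 1.96% of those of tested genes. It was in 1.88% of promoters of genes that rose and in 3.18% of those of genes that fell. Of 19 cytosolic synthetases with a promoter listed, 7 held it, and all 7 fell, as did 7 of the 12 without it. That split was not particular to this element. The E-box was in 5 of the 19, and all 5 fell, as did 9 of the 14 without it. The call of Aars1, the alanine enzyme and a member of the 7, was lost without OGDR 4 (edgeR adjusted p = 0.0564). Of 29 stress response genes with a promoter 5 held it, of which 4 fell, against 6 of 24 without it. The stretches show the element in 6 of the synthetases and 2 of the stress response genes that hold it. Capitals mark the element or its reverse complement, with up to 36 bases on either side. They lie at chr3:126795928-126796007 (plus strand), chr3:161275511-161275590 (minus strand), chr1:208225320-208225388 (minus strand), chr17:15193633-15193712 (minus strand), chr7:65023727-65023806 (minus strand), chr18:60275753-60275832 (minus strand), chr2:62114786-62114865 (minus strand) and chr5:146820165-146820212 (plus strand), in the order below. Aars1 held 2 matches and is not printed.
Chac1: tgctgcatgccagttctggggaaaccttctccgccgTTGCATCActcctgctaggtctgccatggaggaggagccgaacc
Trib3: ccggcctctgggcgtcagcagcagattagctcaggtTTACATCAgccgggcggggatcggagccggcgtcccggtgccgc
Cars1: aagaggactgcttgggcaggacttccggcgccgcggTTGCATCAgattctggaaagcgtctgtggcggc
Iars1: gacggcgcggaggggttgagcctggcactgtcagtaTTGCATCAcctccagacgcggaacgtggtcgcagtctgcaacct
Mars1: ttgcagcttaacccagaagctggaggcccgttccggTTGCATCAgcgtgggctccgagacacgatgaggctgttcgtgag
Nars1: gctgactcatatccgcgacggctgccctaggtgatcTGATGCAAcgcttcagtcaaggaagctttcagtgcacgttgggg
Tars1: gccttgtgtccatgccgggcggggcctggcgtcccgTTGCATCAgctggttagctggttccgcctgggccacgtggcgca
Yars1: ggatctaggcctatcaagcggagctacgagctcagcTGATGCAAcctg

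Carriers and folate enzymes that feed protein synthesis fell in part. Of 21 amino acid transporters tested of 31, 7 fell and 1 rose. Slc1a5, which carries glutamine and other neutral amino acids, fell from 158 to 104 CPM without overlap (-0.60 ± 0.062). The neutral carrier Slc1a4, the arginine carrier Slc7a1, the glycine carrier Slc6a9 and the glutamine carrier Slc38a2 changed by -0.49, -0.50, -0.55 and -0.38. Slc6a6, the taurine carrier, rose from 147 to 217 CPM. In serine, glycine and folate metabolism 4 of 24 genes rose and 7 fell. The mitochondrial folate enzymes Mthfd2, Mthfd1l and Shmt2 fell from 259.6 to 177 CPM, from 187 to 129.8 CPM and from 262 to 191 CPM, while Mat2a, which makes S-adenosylmethionine, rose by 0.33.

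Ribosomal and ribosome assembly genes fell by small amounts where they changed. Of 44 ribosome assembly genes tested of 46, 22 fell and 0 rose, and the median was -0.22. The nucleolar proteins nucleolin (Ncl) and nucleophosmin (Npm1) were among them. Ncl had 739, 720.1, 750.1 and 794 CPM in OGDR and 594, 576, 609.9 and 661 CPM in MSC. Npm1 had 543, 531, 575 and 561 CPM in OGDR and 464, 445, 440.2 and 491 CPM in MSC, and neither gene's groups overlapped. Without MSC 1, 14 ribosome assembly genes fell. Pes1 and Gnl3, which act in maturation of the large subunit and in the nucleolus, changed by -0.32 and -0.35. Among 71 genes of cytosolic ribosomal proteins there were 33 falls and 0 rises, Rpl5 going from 592 to 472 CPM. Without OGDR 2 the count was 19, and without MSC 3 it was 20. Translation factors split 3 up and 20 down of 65. Eif2b3 and Eif2s2, parts of the machinery that loads the initiator transfer RNA, fell by 0.59 and 0.39. Eif4ebp2, a repressor of initiation, rose by 0.51. Mitochondrial ribosomal proteins had 1 up and 6 down of 72, with Mrpl45 (0.54) the riser.

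Chemokines, which call in immune cells, fell more often than they rose. Of 14 tested chemokine genes and decoy receptors of 36, 7 fell and 2 rose. Ccl2, the main monocyte attractant, had 827, 836, 809 and 855 CPM in OGDR and 354, 342, 323 and 344 CPM in MSC (-1.29 ± 0.0524, adjusted p = 2.34e-13). Cxcl10 and Cxcl11, interferon-induced attractants of T cells, fell from 3259 to 2425 CPM and from 25.1 to 14.9 CPM, and Ccl4 from 11.2 to 3.44 CPM. The risers were decoy receptors that remove chemokines, Ackr3 (0.64) and Ackr1, which had 1 count over the OGDR group and 62 over the MSC group. The call of Ackr3 was lost with the replicate block and without OGDR 1 or 3 or MSC 1, 2 or 4 (edgeR adjusted p = 0.0571 to 0.133). Interleukin and LIF-type ligands had 3 up and 4 down of 22, with the macrophage growth factor Csf1 at 0.61, the decoy ligand Il1rn at -0.44 and the CNTF-family ligand Clcf1 at -0.65.

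Receptors for such ligands rose more often than they fell. Of 27 interleukin, interferon and TNF family receptors tested of 36, 15 rose and 1 fell, with a median of 0.31. Il1r1, the signalling receptor of interleukin-1, had 38.6, 42.8, 48.2 and 38.1 CPM in OGDR and 77.2, 69.4, 87.8 and 74.4 CPM in MSC, with each MSC library above the highest OGDR library (0.88 ± 0.119). Il17rc, a chain of the interleukin-17 receptor, rose from 32.5 to 67.2 CPM, the interferon-gamma receptor chain Ifngr1 from 53.7 to 73.2 CPM, and the interleukin-33 receptor Il1rl1 from 13 to 20.6 CPM. Ngfr, the low-affinity neurotrophin receptor and a TNF family member, had 156, 156, 162 and 157 CPM in OGDR and 203, 225, 222 and 218 CPM in MSC (0.46 ± 0.0493). Tnfrsf12a, the receptor of TWEAK, was the fall at -0.45. Toll-like receptors and adaptors split 3 up and 2 down of 18, where 11.6% of all tested genes rose and 8.63% fell. The kinase Irak2 and the flagellin receptor Tlr5 changed by 0.76 and 0.61. Interferon-stimulated genes split 2 up and 4 down of 33, with Stat2 at 0.50 and Batf2 at -2.03. In eicosanoid synthesis and reception 3 rose and 3 fell of 14, among them the prostaglandin receptor Ptger1 (0.44) and the prostaglandin carrier Slco2a1 (-0.54).

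Structural genes of the extracellular matrix rose broadly. Of 31 collagen chains tested of 42, 15 rose and 4 fell, with a median of 0.55. Col6a1 and Col6a2, chains of the microfibril collagen VI, both rose. Col6a1 had 578, 578, 554 and 545 CPM in OGDR and 1211, 1200.4, 1117 and 1128 CPM in MSC. Col6a2 had 635, 636, 572 and 587 CPM in OGDR and 1384, 1456, 1309 and 1304 CPM in MSC, and in both genes each MSC library exceeded every OGDR library. The basement membrane chains Col4a1 and Col4a2, which share a promoter region head to head, rose from 43.1 to 74.5 CPM and from 114 to 198 CPM. Col5a1 and Col12a1, which regulate fibril size and bind fibrils, rose by 0.75 and 0.77. The 4 falls were in Col9a2, Col9a3, Col15a1 and Col17a1, at -0.89, -0.36, -0.27 and -0.47, and the call of Col17a1 was lost without OGDR 3, MSC 2 or MSC 3 (edgeR adjusted p = 0.06 to 0.0924). Fibrillar Col1a1 was scarce, with 6.09, 5.37, 4.10 and 4.68 CPM in OGDR and 6.14, 4.62, 4.87 and 5.69 CPM in MSC and overlapping groups.

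Proteoglycans and matricellular proteins had 20 rises and 4 falls among 36 tested of 50 (median 0.42). Thbs1, which activates latent TGF-beta and binds many matrix proteins, had 249, 264, 259 and 242 CPM in OGDR and 911, 884, 999.9 and 838 CPM in MSC (1.84 ± 0.0696). The heparan sulfate proteoglycans Sdc4 and Hspg2 rose from 158 to 355 CPM and from 44.3 to 84.7 CPM, and the small leucine-rich proteoglycan Bgn from 526 to 858 CPM. Integrins and laminins split 11 up and 1 down of 32. Itga10, a collagen-binding integrin chain, had 10, 10.3, 8.29 and 9.14 CPM in OGDR and 34, 34.4, 31.1 and 29.4 CPM in MSC (1.77 ± 0.0994), and the laminin chains Lamb2 and Lamc1 rose by 0.94 and 0.40. Proteases and inhibitors of the matrix split 12 up and 5 down of 37, with the secreted protease Htra1 at 0.52, Adamtsl4, a fibrillin-binding protein, at 1.31, and the metalloproteases Mmp11 and Adamts1 at -0.76 and -0.62. In coagulation and plasminogen control 3 rose and 4 fell of 14. Plat, which activates plasminogen, rose from 16 to 36.8 CPM, while F3, the tissue factor that starts clotting, fell from 180.0 to 103 CPM, and the urokinase receptor Plaur from 56.5 to 38.7 CPM.

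**Figure D5:**
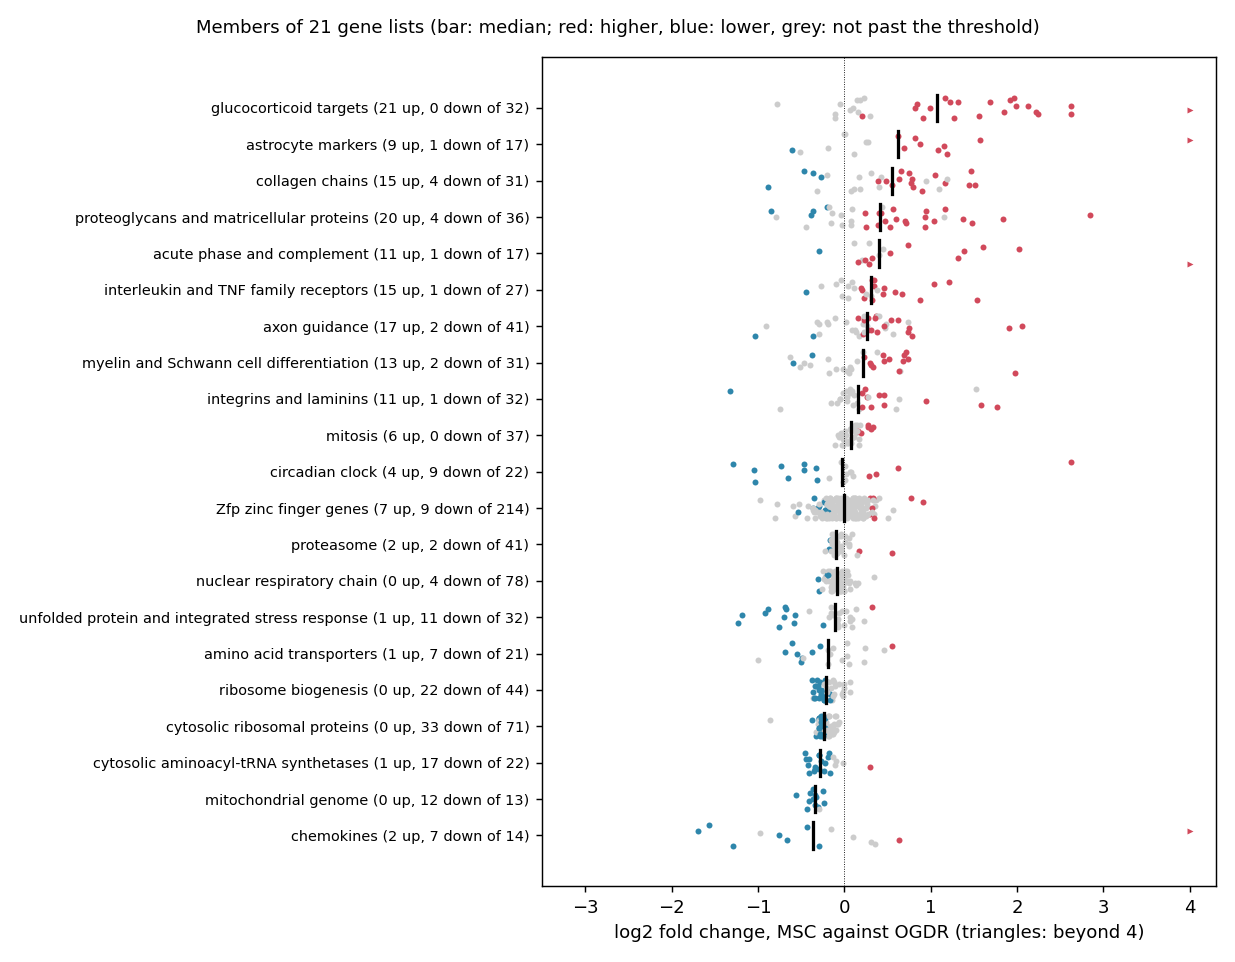
Log2 fold changes (x axis) of the tested members of 21 gene lists (rows), each dot a gene, red where it rose, blue where it fell and grey where it did not pass, with a black bar at the list median and triangles for values beyond 4. The bars run from 1.08 for glucocorticoid targets to -0.36 for chemokines, and all 71 cytosolic ribosomal protein genes lie left of 0, called or not.

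Growth factor receptors and their ligands were read as separate lists. Of 23 receptor tyrosine kinases tested of 35, 7 rose and 1 fell. Mertk, which clears dying cells, had 2.78, 3.35, 2.36 and 3.32 CPM in OGDR and 14.8, 12.3, 15.8 and 13.4 CPM in MSC (2.25 ± 0.152). The collagen receptor Ddr1, the fibroblast growth factor receptor Fgfr3 and the PDGF receptor Pdgfrb rose from 93.7 to 146 CPM, from 46.1 to 84.8 CPM and from 42.2 to 58.5 CPM, and the VEGF receptor Flt1 was the fall (-0.34). Growth factor ligands had 5 up and 6 down of 22. Fgf9, a ligand of Fgfr3, had 16.2, 17.6, 15.8 and 21.1 CPM in OGDR and 5.84, 6.62, 6.01 and 7.86 CPM in MSC (-1.42 ± 0.132), and the PDGF chains Pdgfa and Pdgfb changed by -0.36 and -0.86. Nrg2, a neuregulin, rose from 15.7 to 28.4 CPM. In insulin-like growth factor binding and signalling 7 rose and 4 fell of 26, with Phlda1, a pleckstrin-domain protein, at -0.68, the PI3-kinase subunit Pik3r1 at 0.75, Igfbp7 at 0.66 and the forkhead factor Foxo1 at 0.55. Feedback inhibitors of ERK signalling had 1 rise and 8 falls of 21, with Spry1 up by 1.24 and Spry4, Spry2 and the phosphatase Dusp5 at -0.86, -0.56 and -0.58.

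In the TGF-beta and BMP pathway 11 rose and 8 fell of 45 tested of 57. For this and the next lists, the shares over all tested genes were 11.6% risen and 8.63% fallen. Fst, which traps activins, had 67.8, 60, 66.4 and 59.9 CPM in OGDR and 34.7, 31.8, 32.3 and 32.5 CPM in MSC (-0.95 ± 0.0705). Lrrc32, a surface anchor of latent TGF-beta, and Ltbp2, a matrix protein of the latent binding family, rose from 1.13 to 8.36 CPM and from 16.9 to 34 CPM. The ligand Tgfb3 and the signal carrier Smad3 rose by 0.39 and 0.53. Wnt genes had 2 up and 4 down of 26: beside Axin2, the nuclear partner Lef1 of beta-catenin and the secreted Sfrp4 fell from 60.5 to 40 CPM and from 12.5 to 5.39 CPM, and the R-spondin receptor Lgr4 rose from 31.6 to 46.6 CPM. Notch genes had 6 up and 2 down of 22. The receptor Notch1 had 112, 116, 118 and 117 CPM in OGDR and 178, 170.0, 188 and 159 CPM in MSC. Its relative Notch2 had 86.4, 81.7, 97.8 and 84.5 CPM in OGDR and 126, 134, 141 and 119 CPM in MSC, and both rose without overlap. Rbpj, the DNA-binding partner of cleaved Notch, fell by 0.37. Lipid mediator genes of the sphingosine and lysophosphatidate group had 4 up and 1 down of 25, with the kinase Sphk1 at 0.87 and the receptors S1pr2 and S1pr1 at 0.55 and -1.56. Cyclic nucleotide genes split 4 up and 3 down of 32, near the shares over all tested genes, with the phosphodiesterases Pde4b and Pde2a at 0.64 and -1.44. Immediate early factors had 5 up and 11 down of 27, among them Fos (0.90), Egr1 (-0.54), Ier5 (-0.61) and Atf3 (-0.92).

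Genes by which growing axons and glia read their surroundings rose more often than they fell. Of 41 axon guidance genes tested of 66, 17 rose and 2 fell, with a median of 0.26. The plexins are the receptors of semaphorins, and Plxnb1 and Plxnd1 rose from 32 to 53.4 CPM and from 31.4 to 48.4 CPM, beside Plxnb3. Efnb2, a ligand of Eph receptors, had 3.36, 4.04, 4.05 and 3.27 CPM in OGDR and 13.4, 12.9, 16.8 and 12.2 CPM in MSC (1.91 ± 0.203). The neuropilins, co-receptors of semaphorins and VEGF, moved apart: Nrp1 rose and Nrp2 fell. Nrp1 had 64.2, 58.9, 72.4 and 60.1 CPM in OGDR and 105, 97.7, 126 and 101 CPM in MSC. Nrp2 had 774, 756, 801 and 785 CPM in OGDR and 616, 586, 651 and 565 CPM in MSC. Neurite and microtubule-linked proteins had 12 up and 1 down of 23. Crmp1, which carries semaphorin signals to the cytoskeleton, had 248, 247, 226 and 227 CPM in OGDR and 469.6, 501, 446 and 471 CPM in MSC (0.99 ± 0.0544), and Cadm3, a nectin-like adhesion molecule, went from 2.07 to 15 CPM. Of 14 tubulins 5 rose and 0 fell, with Tubb2a at 0.59 and the neuronal form Tubb3 at 0.65. Kinesins had 5 up and 1 down of 30, the neuronal vesicle motor Kif1a (-0.82) being the fall.

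Glial differentiation genes were higher in part. Myelin and Schwann cell genes had 13 rises and 2 falls among 31 tested of 38 (median 0.21). Pmp22, a peripheral myelin protein, had 112, 121, 109 and 111 CPM in OGDR and 157, 165, 162 and 168 CPM in MSC and rose without overlap (0.52 ± 0.0522), and the adhesion molecule Cadm4 rose from 249 to 387 CPM, while Tfap2a, a factor of neural crest and immature Schwann cells, fell from 79.8 to 53 CPM. Sox10 had 409.8, 456, 408 and 424 CPM in MSC and a small rise (0.23 ± 0.0764, adjusted p = 0.0367), which was lost with upper quartile scaling and without OGDR 3 or 4 or MSC 1, 2 or 4 (edgeR adjusted p = 0.0519 to 0.124). Astrocyte markers had 9 rises and 1 fall among 17 tested of 23 (median 0.62). Glul, glutamine synthetase, had 63.8, 69, 64.7 and 69.2 CPM in OGDR and 116, 124, 109.5 and 121 CPM in MSC. The intermediate filament gene Gfap had 7.70, 8.97, 6.94 and 7.38 CPM in OGDR and 17.1, 18.8, 18.5 and 16.6 CPM in MSC, and both rose without overlap. The chaperone Clu and the adhesion molecule Hepacam rose from 33.2 to 74.3 CPM and from 46.7 to 75.4 CPM, and the gap junction protein Gja1 was the fall (-0.60). Glul and Klf15 are among the genes counted in more than 1 list, as 2459 tested memberships of all lists covered 2316 distinct genes. Potassium and chloride channels had 5 up and 3 down of 20, with the axonal channel Kcna1 from 38.7 to 83.6 CPM.

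Adhesion and cytoskeleton genes outside these groups were mixed. Cell junction genes had 8 up and 1 down of 25, with the cadherin Cdh13 and the nectin Nectin3 at 0.58 and 0.41. The count up was 5 without OGDR 1 or MSC 1. Actin and contractile proteins had 8 up and 5 down of 38, with Synpo and Flnc, which organise actin bundles, at 0.63 and 0.42, and the severing protein Scin at -1.64. Regulators of actin dynamics had 8 up and 3 down of 31. Rhob, an endosomal small GTPase, had 105, 108, 99.5 and 96.6 CPM in OGDR and 229, 229, 235 and 236 CPM in MSC (1.18 ± 0.0554). The kinases Pak1 and Limk1, which act in turn on actin turnover, rose from 40.3 to 88.8 CPM and from 132 to 205 CPM. Rab GTPases, which direct vesicle traffic, had 4 up and 0 down of 49, with Rab30 at 0.70.

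Several enzymes that control entry of carbon into the mitochondrion changed. Of 32 genes of the tricarboxylic acid cycle and pyruvate entry, 6 rose and 3 fell, with a median of 0.0089. The counts in this paragraph stand beside 11.6% risen and 8.63% fallen over all tested genes. Pc, pyruvate carboxylase, which refills the cycle, had 87.9, 97.7, 82.5 and 87.3 CPM in OGDR and 164, 177, 165 and 165 CPM in MSC (0.92 ± 0.0602). The kinases that shut pyruvate dehydrogenase moved apart, with Pdk2 and Pdk3 at 0.76 and 0.33 and Pdk1 at -0.73. Cpt1a, which admits long-chain fatty acids to the mitochondrion, had 70.2, 70.2, 73.6 and 71.4 CPM in OGDR and 121, 129, 126 and 123 CPM in MSC (0.81 ± 0.0605), in a fatty acid oxidation list with 2 up and 4 down of 28. Glucose transport and glycogen genes had 2 up and 5 down of 23, and the carriers Slc2a1 and Slc2a3 fell from 72.4 to 42.4 CPM and from 107 to 76.5 CPM. In the pentose phosphate and nucleotide list 3 rose and 5 fell of 28, the salvage kinase Tk1 (0.28) and the transketolase Tkt (-0.26) among them. Lipid droplet genes split 4 up and 4 down of 24, with the coat protein Plin4 at 1.68 and the lipase inhibitor Hilpda at -0.70. Cholesterol genes had 2 up and 9 down of 31, the synthesis enzyme Msmo1 at -0.23.

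Of the 13 protein genes of the mitochondrial genome 12 fell and 0 rose, with a median of -0.34. Mt-atp6 had 3016, 2857, 2850.2 and 3371 CPM in OGDR and 2197, 2120.0, 2119 and 2518 CPM in MSC (-0.43 ± 0.0621), and Mt-cyb and Mt-nd2 changed by -0.34 and -0.36. The nuclear genes of the same complexes had 4 falls and 0 rises of 78 and a median of -0.08. The difference between the lists was not tested. In the hypoxia list 6 rose and 12 fell of 28. Bnip3, a mitophagy receptor, had 99.9, 117, 121 and 118 CPM in OGDR and 56.5, 57.8, 52.8 and 62.7 CPM in MSC (-0.99 ± 0.0719), and Vegfa fell by 0.65, while Ndrg1 and Adm, a stress-responsive protein and the vasodilator adrenomedullin, rose from 283 to 428 CPM and from 43.7 to 72.3 CPM. Vhl, which marks HIF for breakdown, rose from 48.7 to 77.8 CPM. Oxidative stress and glutathione genes split 7 up and 9 down of 31, with 4 up without OGDR 2, OGDR 3 or MSC 2. The quinone reductase Nqo1 had 649, 631, 653 and 661 CPM in OGDR and 492, 489, 457 and 502 CPM in MSC, whereas the glutathione transferase Gstm2 rose from 9.64 to 21.9 CPM. Small heat shock and other chaperones split 5 up and 4 down of 23, with the lens and glial chaperone Cryab from 165 to 506 CPM and the constitutive Hspa8 at -0.24. Metallothionein and zinc carrier genes had 2 up and 1 down of 17, with the zinc and iron importer Slc39a14 (0.52).

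Cell division genes changed in a minority of members. Over all tested genes, 11.6% rose and 8.63% fell. DNA replication genes had 7 up and 1 down of 41, with the helicase subunits Mcm2 and Mcm5 at 0.28 and 0.27. Mitosis genes had 6 up and 0 down of 37: Espl1, the protease that frees sister chromatids, rose from 122 to 152 CPM, and the kinase Aurkb from 93.1 to 117 CPM. Cyclins, their kinases and inhibitors had 9 up and 3 down of 39. The D-type cyclins, which start the cycle, moved apart: Ccnd3 rose and Ccnd1 fell. Ccnd3 had 146, 137, 135 and 123 CPM in OGDR and 222, 241, 211 and 212 CPM in MSC. Ccnd1 had 1048, 1049, 1084 and 1014 CPM in OGDR and 877, 896, 915 and 882 CPM in MSC. Mxd4, an antagonist of MYC, rose from 40.8 to 69.9 CPM, and Myc fell from 56.4 to 46 CPM. Apoptosis regulators had 3 up and 4 down of 28, with the survival protein Bcl2l1 at 0.62 and the inflammatory caspase Casp4 at -0.46.

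Other families were read in the same way. Of 214 Zfp zinc finger genes 7 rose and 9 fell, with 11 rises without MSC 4. Histone genes had 0 calls up and 0 down of 16, proteasome genes 2 up and 2 down of 41, and Hox genes 1 up and 1 down of 16. Lysosome and autophagy genes had 4 up and 5 down of 39. Sox, Fox and Pou factors had 6 up and 2 down of 36, with Sox13 falling from 74.6 to 44.2 CPM. Of 197 solute carriers tested of 345, 29 rose and 22 fell. The phosphate carrier Slc20a1 fell from 359 to 193 CPM (-0.89 ± 0.0517), and the choline carriers Slc44a1 and Slc44a2 rose from 249.7 to 372 CPM and from 73 to 125 CPM. Over all 74 lists together, 2316 distinct genes were tested, of which 381 rose (16.5%) and 349 fell (15.1%), beside 11.6% and 8.63% over all tested genes. The lists were chosen with earlier results known, and calls were more frequent at higher levels. The difference in shares is therefore no result about the lists.

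Markers of other cell types were read beside these groups. Of 21 surface markers of mesenchymal stem cells, 15 were tested, 6 rose and 1 fell. Their summed level ran from 3207.8 to 3326.1 CPM over the OGDR libraries and from 3396.4 to 3555 CPM over the MSC libraries. Thy1, a defining marker, had 7 counts over the 4 OGDR libraries and 1 over the 4 MSC libraries, and Eng stood at 1.12 and 1.22 CPM. As with the genes listed at 0, so few counts do not show that Thy1 is silent. Nt5e, another defining marker, had 13.2, 11.7, 14.6 and 13.4 CPM in OGDR and 19.2, 21.9, 24.1 and 22.6 CPM in MSC, and Cd44 fell from 601 to 533 CPM. The call of Cd44 was lost with the replicate block and without OGDR 2, 3 or 4 or MSC 1, 2 or 4 (edgeR adjusted p = 0.0585 to 0.104). Mcam, an adhesion molecule shared with Schwann and mural cells, rose from 157 to 227 CPM. Bone, cartilage and fat lineage markers had 2 up and 3 down of 11, the bone regulator Runx2 falling from 68.9 to 55.5 CPM. Macrophage and microglia markers had 3 tested of 20 with 0 up and 0 down, and endothelial and mural markers 7 of 18 with 1 up and 0 down, the rise being the angiopoietin receptor Tek (0.40). Its call was lost with upper quartile scaling, with the replicate block and without OGDR 1, 2 or 3 or MSC 1, 3 or 4 (edgeR adjusted p = 0.0535 to 0.142). Chromaffin markers had 2 up and 1 down, with Th at 0.673 CPM in MSC, a call lost without OGDR 1 or 3 or MSC 1 or 4 (edgeR adjusted p = 0.0508 to 0.103), and the granule protein Scg2 falling from 293 to 203 CPM. The summed level of the macrophage list was 53.1 to 61.8 CPM over OGDR and 53.2 to 67.8 CPM over MSC, with Adgre1, Cd163, C1qa, C1qb and Laptm5 listed at 0 in both. The endothelial and mural list summed to 117 to 129 CPM over OGDR and 118 to 125 CPM over MSC, with Kdr, Emcn and Kcnj8 at 0. The part of any of these cells in the changes was not tested.

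Library MSC 3 had the fewest counts in genes, 18246250, and stood furthest from the others of its group. Of 7854 genes with a mean of at least 20 CPM over the 8 libraries, 60 lay over 0.5 log2 units from the mean of MSC 1, 2 and 4. For the other 7 libraries in their groups the count was 3 to 24. Some of the genes with the widest gaps are given here as a description, with no test. Itgb8, an integrin chain, had 105, 88.2, 173 and 95.6 CPM in the 4 MSC libraries, and Slc4a7, a bicarbonate carrier, 54.2, 43.6, 76.6 and 40 CPM. Mib1, a ubiquitin ligase of Notch ligands, had 24.4, 16.1, 34.2 and 15.7 CPM, and OGDR 3 was the highest OGDR library for each of these 3. Below the others stood Gstm2, with 21.6, 23, 16.5 and 26.6 CPM. Without MSC 3, 2382 genes changed, 2246 of them among the 2763.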

How the data were processed

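Messenger RNA of 12 bulk libraries, 4 per group, was sequenced. The authors deposited raw read counts per Ensembl gene; HISAT2 2.1.0, HTSeq 0.11.2, DESeq2 1.40.1 and the build mRatBN7.2 are named per the submitters' processing notes, and the strand setting is not stated there. The 5 HTSeq summary lines were left out; reads assigned to no feature were 51.76 to 52.71% of the total in the 8 MSC and OGDR libraries. Genes passed filterByExpr of edgeR 4.0.16 (R 4.3.3, limma 3.58.1, minimum count 10, minimum total 15) over the 3 groups. The test was edgeR's quasi-likelihood test over all 12 libraries with TMM scaling and Benjamini-Hochberg adjustment over 13692 genes, 2-sided, with a threshold of 0.05. It was also run on simulated counts in which all genes had the same spread, so that run does not give its error rates for these data. DESeq2 1.42.0, other scalings and filters, the replicate block and leaving out each library were alternatives. Symbols came from the deposited table, and 231 symbols stood on more than 1 gene. Genes that overlap or have near-identical copies can share reads. Replicates differed by a chi-square of 4.209 to 11.63 per gene, above the counting noise.

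The genes named were the 12 largest fold changes per direction without overlap and of at least 20 CPM, the 10 largest gains and losses in CPM, up to 6 members per list with the smallest p and those that define a list, and the 8 widest gaps of MSC 3 per direction, apart from a few that are not reported here. The members and the 74 lists were chosen with earlier results of these data known. Aars1, Ackr3, Bhlhe41, Cd44, Col15a1, Col17a1, Col1a1, Col9a2, Col9a3, Creld2, Cry1, Eng, Fam107a, Flt1, Myc, Npas2, Per3, Qars1, Smad3, Socs3, Tef, Tnfrsf12a, Usp2 and Yars1 fell outside that rule and were named after their values were seen.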

Additional observations from a re-analysis of the deposited data

Results flagged for a closer look

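Of 524 groups of 4 libraries checked (262 genes named in the text, OGDR and MSC), 25 held a library whose gap to the nearest other passed Dixon's 95% critical value for 4 samples as a share of the group's range. Chance gives such a gap in about 1 in 20 groups. MSC 2 stood apart with 548 CPM in Cryab (others 488 to 497), 159.8 CPM in Espl1 (others 149 to 149.9), 206 CPM in Nectin3 (others 221 to 222), 177 CPM in Pc (others 164 to 165) and 2.41 CPM in Pdgfb (others 3.77 to 3.98). MSC 3 stood apart with 74.9 CPM in Adamts1 (others 62.1 to 63.4), 2.65 CPM in Col9a2 (others 1.59 to 1.66) and 109.6 CPM in Nr3c1 (others 99.1 to 99.3). MSC 4 stood apart with 6.91 CPM in Atf3 (others 5.08 to 5.31), 17.1 CPM in Cxcl11 (others 14 to 14.4) and 10365 CPM in Mt-co1 (others 8646 to 8937). OGDR 1 stood apart with 2.14 CPM in C3 (others 3.42 to 3.55), 37.1 CPM in Evi2a (others 31.4 to 32.4), 32.5 CPM in Pdk2 (others 26.3 to 27.3) and 65.8 CPM in Socs3 (others 58.3 to 59). OGDR 2 stood apart with 0.0493 CPM in Ackr1 (others 0 to 0), 73.4 CPM in Pdgfa (others 63.2 to 64.2) and 8.97 CPM in Scin (others 7.6 to 7.79). OGDR 3 stood apart with 110.0 CPM in Adamts1 (others 97.9 to 98.6), 14 CPM in Foxo1 (others 12.7 to 12.7) and 27.3 CPM in Mib1 (others 17 to 18.4). OGDR 4 stood apart with 3669 CPM in Mt-co2 (others 3281 to 3342), 425 CPM in Nars1 (others 396 to 398), 12.5 CPM in Nrg2 (others 16.3 to 17) and 11.7 CPM in Tek (others 9.26 to 9.66).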

How the results depend on the processing

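The counts of genes changed, risen, fallen and changed at least 2-fold stayed within 1.5 times their main values under the alternatives, except that at an adjusted p under 0.01 the test called 1743 genes changed and 654 fallen. Leaving out a library gave 2243 to 2614 changed genes, 1341 to 1503 risen, 899 to 1111 fallen and 287 to 322 changed at least 2-fold. DESeq2 called 3097 genes, a fit of the 8 libraries 3247 of 13400 tested, and upper quartile scaling 2869, of which 50.4% rose. In the fit of 8 libraries 259 of the 262 named genes kept their status, 1 gained a call, and the rest were not tested. Among 262 named genes none of the scalings, DESeq2 or the replicate block turned a direction. Without a library, 4 genes that had not passed the test turned: Col1a1 to -0.014 (without OGDR 3) and -0.0008 (without MSC 1), Eng to -0.13 (without MSC 2), Mib1 to -0.098 (without MSC 3) and Slc4a7 to 0.12 (without OGDR 3), 0.0040 (without MSC 2) and 0.034 (without MSC 4). The cause was not tested. The other end of their ranges was 0.18 for Col1a1 (without OGDR 1), 0.28 for Eng and -0.31 for Slc4a7 (both without MSC 3). Genes with few counts are the least precise: below 1 CPM, few calls could be made.

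The labels number the replicates 1 to 4 in each group. Deviations of same-numbered OGDR and MSC libraries correlated at 0.062, 0.303, 0.359 and 0.239 over 10603 genes, and OGDR 1 correlated best with MSC 2 (0.296), while OGDR 2, 3 and 4 each correlated best with their own number. As 1 pair of 4 was under 0.1 and no label says what a number marks, the number was not used as a pairing, though the other 3 hint at one. With the number as a replicate block 2577 genes changed, of which 2524 were among the 2763, 1488 rose, 1089 fell and 305 changed at least 2-fold. The calls of Ackr3, Cd44 and Tek were lost in that fit.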
